A study of Mus musculus with 12 samples.

Results

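The circadian clock genes of the mouse liver just before birth were described here by 10 members, Per1, Per2, Per3, Cry1, Arntl, Clock, Nr1d1, Nr1d2, Dbp and Tef, out of 19938 genes measured. They are a list of names with no threshold on their values, and each was matched by its symbol to 1 probeset, a set of array probes summarised as 1 value. Whole livers were collected by cesarean section at embryonic day E19.5 from 6 fetuses lacking the nuclear receptor PPARα (Ppara-/-) and 6 wild-type fetuses (Ppara+/+), and 1 liver was hybridized to each Affymetrix Mouse Gene ST array. All fetuses came from matings of heterozygous parents, so both genotypes developed in heterozygous mothers, and PPARα was absent from the whole body and not from hepatocytes alone. The strain is SV129 in the labels and a C57BL/6 background in the methods. According to the methods each genotype drew on fewer litters than livers, so some livers shared a litter, which the labels do not identify. No hour of collection is given in the sources used here. Values are log2 signals, differences are Ppara-/- minus Ppara+/+, and a gene is called where the p-value of limma, adjusted over all genes, lies under 0.05.

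The circadian clock is a loop in which the proteins CLOCK and ARNTL (also called BMAL1) bind E-box sequences and switch on the Per and Cry genes, whose products then block CLOCK and ARNTL. A second loop runs through the nuclear receptors REV-ERBα and REV-ERBβ, encoded by Nr1d1 and Nr1d2, which repress Arntl and are opposed by the ROR receptors. DBP, TEF and HLF, transcription factors of the PAR bZIP family, carry the rhythm to D-box sequences of output genes. In the adult liver these genes oscillate strongly over the day and are known to be set by feeding and glucocorticoids, and in adult rodents Ppara is itself known as a clock-controlled gene. In fetal tissues the oscillation is known to be weak or to develop late. A single collection, as here, gives levels and not rhythms.

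Ppara itself read 9.83 ± 0.09 in Ppara-/- livers and 10.84 ± 0.10 in Ppara+/+ livers (log2 signal, mean ± SD, n = 6 each), a fall of 2.01-fold with no overlap (limma adjusted p = 3.6e-08). Its probeset gives 1 value for the transcript, and the sources used here do not say which of its probes lie in the deleted stretch. Array medians ranged from 6.71 to 6.75 and correlations between arrays from 0.9882 to 0.9955. Albumin read 13.50 to 13.64 in the 12 livers, and 0 of the 7 hepatocyte markers were called between genotypes, against 7.24% of all genes. By their Xist and Y-linked signals, Ppara-/- mouse 2 and Ppara+/+ mice 2, 3 and 4 were male and the other 8 fetuses female. In whole liver, fewer cells of a type and less RNA per cell cannot be told apart.

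The sequences through which these genes are wired to each other were looked up in the promoters of RefSeq, taken as 250 bases before and 50 after each annotated start on the mouse assembly GRCm38.p6. The table held 14 promoters for 9 members. The E-box was searched as CACGTG, the D-box as TTATGTAA or TTACGTAA, the half-site shared by REV-ERB, ROR and PPAR receptors as AGGTCA, the PPAR-type element DR1 as a pair of half-sites with 1 base between, and the cyclic AMP element as TGACGTCA, all on both strands. Every DR1 also counts as a half-site. In the stretches printed here no match overlapped another. They hold every match found upstream of Per1, Per3, Cry1, Nr1d2 and Tef, so that the elements can be read in their surroundings, beside the first promoter of Clock, which held none and is given because Clock was called between the genotypes. Capitals mark the motifs, and all are printed 5′ to 3′ on the strand of the gene.
Per1, chr11:69098759-69098841, plus strand, E-box and half-site: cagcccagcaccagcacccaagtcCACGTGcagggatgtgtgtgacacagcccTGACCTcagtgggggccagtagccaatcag
Cry1, chr10:85185085-85185138, minus strand, E-box: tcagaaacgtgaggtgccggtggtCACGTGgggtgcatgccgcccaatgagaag
Per3, chr4:151044792-151044894, minus strand, 2 D-boxes: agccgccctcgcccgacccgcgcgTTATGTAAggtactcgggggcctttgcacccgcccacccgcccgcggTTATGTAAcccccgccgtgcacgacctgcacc
Nr1d2, chr14:18239154-18239207, minus strand, half-site: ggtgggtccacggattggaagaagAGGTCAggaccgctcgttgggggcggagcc
Tef, first promoter, chr15:81802423-81802672, plus strand, E-box: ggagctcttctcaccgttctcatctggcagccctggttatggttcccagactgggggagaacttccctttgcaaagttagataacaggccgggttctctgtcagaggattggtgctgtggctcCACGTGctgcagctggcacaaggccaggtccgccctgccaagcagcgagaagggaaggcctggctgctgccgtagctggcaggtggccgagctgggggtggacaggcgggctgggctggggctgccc
Tef, second promoter, chr15:81811164-81811413, plus strand, E-box: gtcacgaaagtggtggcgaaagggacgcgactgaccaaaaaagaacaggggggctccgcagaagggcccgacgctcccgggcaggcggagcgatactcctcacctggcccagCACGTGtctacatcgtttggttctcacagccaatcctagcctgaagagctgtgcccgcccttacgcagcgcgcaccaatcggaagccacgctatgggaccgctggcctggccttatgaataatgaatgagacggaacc
Clock, first promoter, chr5:76304793-76305042, minus strand, no motif: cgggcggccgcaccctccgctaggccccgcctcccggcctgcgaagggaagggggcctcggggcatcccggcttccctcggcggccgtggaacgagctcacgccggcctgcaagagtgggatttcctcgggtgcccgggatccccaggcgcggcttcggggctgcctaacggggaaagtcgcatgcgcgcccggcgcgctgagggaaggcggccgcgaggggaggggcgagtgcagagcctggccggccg

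An E-box stood in 4 of the 14 promoters, those of Per1, Cry1 and both of Tef, against 7.15% of all 32851 promoters in the table. It began 166 bases before the start in Per1, 60 in Cry1, and 127 and 138 in Tef. The D-box was found only in Per3 among the members, at 205 and 158 bases before the start, and in 1.06% of all promoters. Half-sites occurred in 4 of the 14 promoters, against 16.3% of all, and these were the ones shown for Per1 and Nr1d2, one 119 bases before the third start of Clock and one just inside the second start of Arntl. The DR1 (0.0396% of all promoters) and the cyclic AMP element (1.79%) were found in 0 of the 14. These matches describe letters in a short window.

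Clock and Tef were the only members called between the genotypes. Clock, which encodes the activator that partners ARNTL, was 1.17-fold lower in Ppara-/- livers, and Tef, one of the PAR bZIP output factors, was 1.14-fold higher. Among the 10 members 1 was thus called lower and 1 higher, and 8 were not called. Of all 19938 genes 7.24% were called, 3.82% lower and 3.42% higher, and 10 genes are too few for their share to be set apart from this background. The median difference of the members was 0.02 and that of all genes 0.01. Groups did not overlap for 0 of the 10 members, against 3.59% of all genes, and 3 members had an unadjusted p under 0.05 (Clock, Tef and Per2), against 20.9% of all genes.

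**Figure D1:**
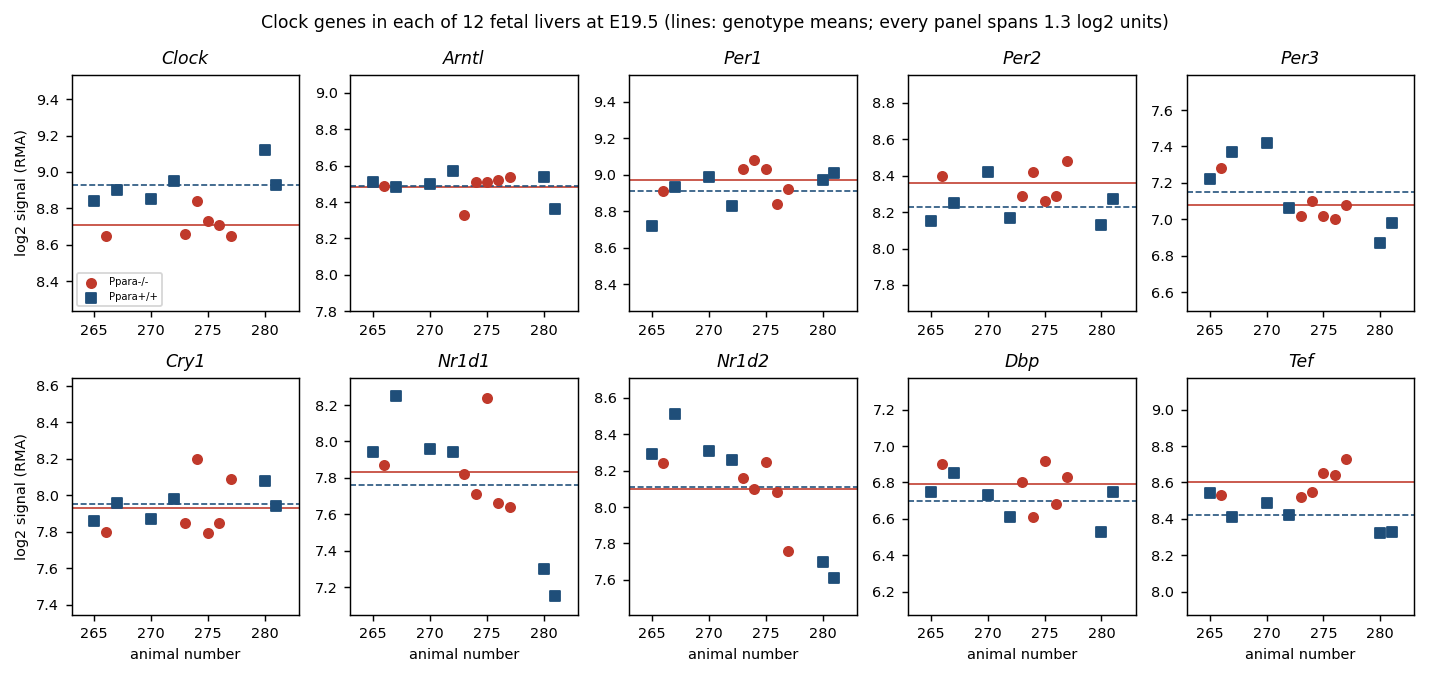
Log2 signal of the 10 clock genes (vertical axis, every panel spanning 1.3 log2 units) against the animal number in the labels (horizontal axis), with circles for 6 Ppara-/- livers, squares for 6 Ppara+/+ livers and lines for the genotype means. Clock lies lower and Tef higher in Ppara-/- livers, and Nr1d1 and Nr1d2 are low in the Ppara+/+ livers of the highest numbers, mice 5 and 6.

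Clock signals in Ppara-/- livers had a lowest value of 8.65, a median of 8.68 and a highest of 8.84, and in Ppara+/+ livers 8.84, 8.91 and 9.12. Of the 6 Ppara-/- livers 5 lay below every wild-type liver, and the sixth, mouse 3, read 8.84 like the lowest wild type, mouse 1. The difference was -0.22 (SE 0.05, 95% interval -0.34 to -0.11, limma adjusted p = 0.022). Leaving out Ppara-/- mouse 2 or mouse 6 ended the call, at adjusted p = 0.058 and 0.056, with a difference of -0.21 in both cases. Over 26 other settings fitted with limma the adjusted p ran from 0.0068 to 0.058 and the difference from -0.26 to -0.18.

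Arntl, the partner of Clock and the core gene whose single loss is known to stop the clock, had nearly the same signal in the genotypes. Its lowest, median and highest values were 8.33, 8.51 and 8.54 in Ppara-/- livers and 8.36, 8.50 and 8.57 in Ppara+/+ livers. The difference was -0.01 with a 95% interval of -0.11 to 0.09 (adjusted p = 0.94). Its spread within a genotype, an SD of 0.07, was larger than in 16.8% of all genes. Arntl was thus among the steadier genes of these livers, with Ppara-/- mouse 2 at 8.33 and wild-type mouse 6 at 8.36 below the other 10, which read 8.48 to 8.57.

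Among the repressors, Per1, Per2, Per3 and Cry1 were not called. The light- and hormone-responsive Per1 gave lowest, median and highest values of 8.84, 8.97 and 9.08 in Ppara-/- livers and 8.72, 8.95 and 9.01 in Ppara+/+ livers, a difference of 0.06 (interval -0.07 to 0.18, adjusted p = 0.65). Per2, the Period gene whose protein is also known to bind nuclear receptors, gave 8.26, 8.35 and 8.48 against 8.13, 8.21 and 8.42. In 4 wild-type livers Per2 lay below every Ppara-/- liver, and 1 Ppara-/- liver lay above every wild type. The difference of 0.13 (SE 0.06) had an unadjusted limma p of 0.048 and an adjusted p of 0.24.

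Per3, a Period gene whose loss leaves the core rhythm largely intact, gave lowest, median and highest values of 7.0, 7.05 and 7.28 in Ppara-/- livers against 6.87, 7.14 and 7.42 in the wild types. Its difference was -0.07 (interval -0.26 to 0.12, adjusted p = 0.75). Cry1, which encodes the main cryptochrome repressor of CLOCK and ARNTL, gave 7.79, 7.85 and 8.20 against 7.86, 7.95 and 8.08. Ppara-/- mice 3 and 6 read highest for Cry1, at 8.20 and 8.09, while the other 4 Ppara-/- livers lay below every wild type, and the difference was -0.02 (interval -0.17 to 0.14, adjusted p = 0.93).

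Tef and Dbp are both PAR bZIP factors, and in the adult liver both are known to follow the E-box driven phase. Tef signals had a lowest value of 8.52, a median of 8.60 and a highest of 8.73 in Ppara-/- livers, against 8.32, 8.42 and 8.54 in Ppara+/+ livers. In all, 4 Ppara-/- livers lay above every wild type and 5 wild-type livers lay below every Ppara-/- liver, so the overlap came from wild-type mouse 1 at 8.54. The difference was 0.19 (SE 0.05, interval 0.07 to 0.30, adjusted p = 0.045). This call was lost in 10 of the 12 fits that left out 1 liver, and the adjusted p reached 0.14 when wild-type mice 5 and 6 were left out together, where the difference was 0.14. With the sex score (Xist minus the Y-linked genes) as a covariate the difference was 0.18 and the adjusted p 0.10.

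Dbp, the PAR bZIP gene with the steepest daily rhythm in adult liver, gave lowest, median and highest values of 6.61, 6.82 and 6.92 in Ppara-/- livers and 6.53, 6.74 and 6.85 in Ppara+/+ livers. The groups overlapped over most of their range. The difference was 0.09 (interval -0.05 to 0.23, adjusted p = 0.52), and its SD between livers, 0.12, was larger than in 54.6% of all genes.

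The REV-ERB genes Nr1d1 and Nr1d2 did not differ detectably between the genotypes, but they varied more from liver to liver than most genes. Nr1d1 had lowest, median and highest values of 7.64, 7.77 and 8.24 in Ppara-/- livers and 7.15, 7.94 and 8.25 in Ppara+/+ livers, a range of 1.09 on the log2 scale among the wild types alone. Nr1d2 gave 7.76, 8.13 and 8.25 against 7.61, 8.27 and 8.51, a range of 0.90 among the wild types. For both genes wild-type mice 5 and 6 read lowest of all 12 livers, at 7.30 and 7.15 for Nr1d1 and 7.70 and 7.61 for Nr1d2. The differences were 0.07 (interval -0.29 to 0.43, adjusted p = 0.88) and -0.01 (interval -0.32 to 0.29, adjusted p = 0.97), so the data leave wider intervals for these genes than for Clock or Arntl. Without wild-type mice 5 and 6 they were -0.20 and -0.24 (adjusted p = 0.32 and 0.12), a setting added after the data were seen.

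The SD within a genotype was 0.34 for Nr1d1 and 0.29 for Nr1d2, larger than in 98.9% and 98.2% of all genes. For both it was larger among the wild types (0.43 and 0.37), which include mice 5 and 6, than among Ppara-/- livers (0.22 and 0.18, larger than in 94.7% and 87.9% of genes there), and this gap was not tested. Over both genotypes Per3 followed with 0.17 (85.9%), then Cry1 with 0.13 (66.0%). Per3 spread more among wild types (SD 0.22 against 0.10) and Cry1 among Ppara-/- livers (0.17 against 0.08). Per1 and Per2 stood at 40.1% and 38.4%, and Clock and Tef at 29.0% and 25.5%. In total 5 of the 10 members exceeded the median SD of all genes and 2 exceeded the 90th percentile.

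**Figure D2:**
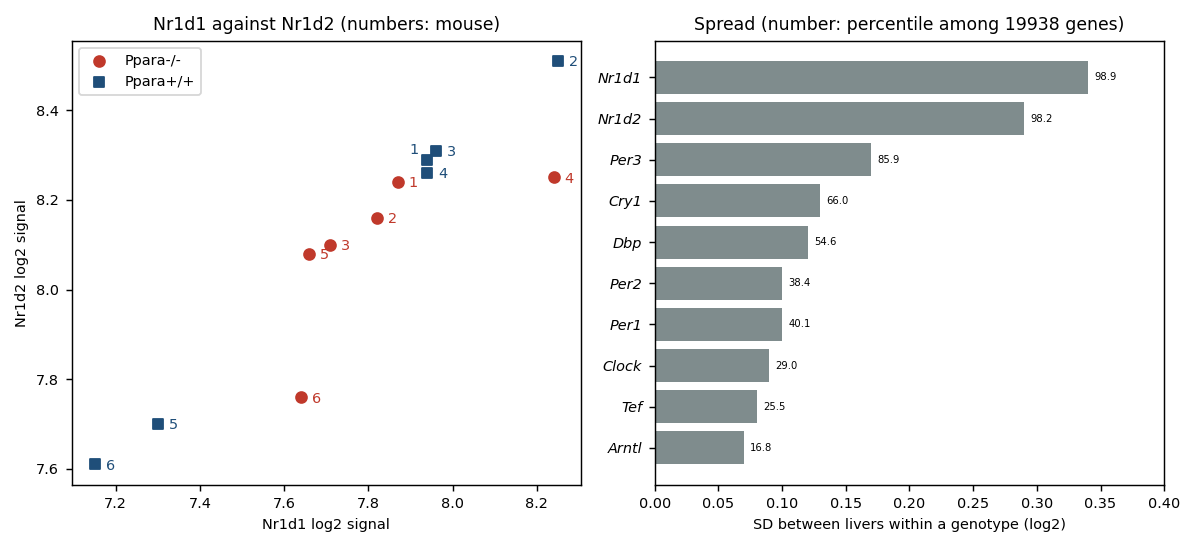
Left, log2 signal of Nr1d1 (horizontal) against Nr1d2 (vertical) in each liver, numbered by mouse, with circles for Ppara-/- and squares for Ppara+/+; wild-type mice 5 and 6 lie apart at the lower left. Right, SD between livers within a genotype for each member (bar length, log2), with the percentage of the 19938 genes that had a smaller SD printed beside the bar.

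Nr1d1 and Nr1d2 ranked the 6 Ppara-/- livers identically (Spearman's rho = 1.0, exact permutation p = 0.0028, adjusted over 10 relations 0.028), the smallest p that 6 livers allow. Pearson's r over the same livers was 0.68 (exact permutation p = 0.17, adjusted 0.67), and 0.95 over the 4 livers left after Ppara-/- mice 4 and 6, the ones farthest from the median of Nr1d1, were left out. In wild-type livers the values fell into 2 clusters, mice 1 to 4 and mice 5 and 6, and no correlation was computed. Of the other 9 relations computed between members within a genotype, 0 passed after adjustment by exact permutation, and 4 in all were not computed because the livers fell into 2 clusters. For Arntl with Nr1d1, its repressor in the adult clock, r in Ppara-/- livers was -0.09 (exact permutation p = 0.85, adjusted 0.97), rho was -0.60 (p = 0.24, adjusted 0.48, exact permutation), and r was -0.17 without mice 2 and 6. For Arntl with Dbp in wild-type livers r was -0.57 (exact permutation p = 0.23, adjusted 0.67), rho was -0.83 (p = 0.058, adjusted 0.29, exact permutation), and r over the 4 remaining livers was -0.99.

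Every fetus also has an animal number in the labels, and the 12 were split into the 6 lowest and the 6 highest numbers. Wild-type mice 5 and 6 carry the highest numbers of all, the other 4 wild types fall in the lower set with Ppara-/- mice 1 and 2, and Ppara-/- mice 3 to 6 fall in the higher set. How these numbers relate to litter, day or hour is not stated in the sources used here. Both high-numbered wild-type livers lay below the 4 low-numbered ones for 4 of the 10 members, Nr1d1, Nr1d2, Per3 and Tef, against 10.7% of all genes. They lay above them for 0 members, against 11.2% of all genes. The differences, high minus low numbers in wild types, were -0.79 for Nr1d1, -0.69 for Nr1d2, -0.34 for Per3 and -0.14 for Tef. Between the 4 high-numbered and 2 low-numbered Ppara-/- livers they were -0.03, -0.15, -0.10 and 0.12.

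For Nr1d1 and Nr1d2 the signs of the genotype differences were opposite in the low and the high numbers, and neither gene passed in either set. Among the 6 lowest numbers both Ppara-/- livers read below all 4 wild types, with a difference of -0.17 for Nr1d1 and -0.14 for Nr1d2 (limma adjusted p = 0.56 and 0.58). Among the 6 highest, all 4 Ppara-/- livers read above both wild types, with differences of 0.59 and 0.39 (adjusted p = 0.18 and 0.24). Such full separation in opposite directions was found in 0.737% of all genes, and the difference between the sets was not tested. It was described after the values were seen. Clock gave differences of -0.23 and -0.29 in the low and high numbers (limma adjusted p = 0.25 and 0.19), and Tef of 0.06 and 0.32 (adjusted p = 0.78 and 0.086).

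Several markers also set these wild-type livers apart. Of all genes 10.7% read lower in both wild-type mice 5 and 6 than in mice 1 to 4, and 11.2% read higher. All 4 megakaryocyte markers lay lower in wild-type mice 5 and 6 than in mice 1 to 4, with a mean signal of 10.16 to 10.18 against 10.32 to 10.48. The same held for 4 of 5 endothelial markers (9.67 to 9.69 against 9.82 to 9.88), and 2 of 5 stellate cell markers, Rgs5 and Lrat (list mean 8.42 to 8.49 against 8.55 to 8.79), while Reln read above mice 1 to 4. Of the 2 hepatoblast markers Dlk1 was higher in these livers (list mean 12.33 to 12.43 against 12.09 to 12.17), and of 6 macrophage markers 2, Cd68 and Cd5l, were higher and 1, Adgre1, lower (mean of the macrophage list 9.05 to 9.13 against 8.99 to 9.09). Of the 7 hepatocyte markers 1, Serpinc1, was lower (list mean 12.94 to 12.95 against 12.95 to 13.01), and 0 of 5 erythroid markers were. Both livers were female, as was wild-type mouse 1, which read 7.94 for Nr1d1 and 8.29 for Nr1d2. The part of these cell types, of sex and of the animal number in the Nr1d1 and Nr1d2 signals was not tested.

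Genes known to carry outside signals to the clock were examined in the same way. Per1 is itself known to respond to glucocorticoids. Of 9 other genes induced by this hormone 2 were called lower and 1 higher, against 7.24% of all genes called, with a median difference of -0.01. Klf9, a glucocorticoid- and clock-driven transcription factor, was lower with a difference of -0.43 (adjusted p = 0.0029), and Tat, the tyrosine aminotransferase switched on around birth, with one of -1.61 (adjusted p = 0.031). Among Ppara-/- livers Tat read 11.72 in mouse 1 and 9.17 to 10.37 in the others. Dusp1, a phosphatase gene, was higher by 0.29 (adjusted p = 0.040). Fkbp5 and Tsc22d3, both widely used as readouts of the glucocorticoid receptor, had differences of -0.01 (adjusted p = 0.94) and -0.08 (adjusted p = 0.65). Wild-type mice 5 and 6 read below mice 1 to 4 for Sgk1, Klf9 and Tat (10.7% of all genes). They read above them for Tsc22d3, Zbtb16, Mt1 and Mt2 (11.2% of all genes). For Tat these livers read 10.98 and 10.34, against 12.10 to 12.33 in the other wild types, and for Zbtb16 9.73 and 9.65 against at most 9.25.

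Of 8 immediate early genes, which respond within minutes to stimulation of a cell, 0 were called, against 7.24% of all genes. Of the 8, 2 had an unadjusted limma p under 0.05 (20.9% of all genes). Egr1 gave a difference of -0.83 (adjusted p = 0.20) and Atf3 of 0.66 (adjusted p = 0.063). Egr1 ranged from 6.59 to 9.17 among wild types, with mice 5 and 6 lowest at 7.01 and 6.59. Fos and Jun too were lower in those livers than in mice 1 to 4, as were 10.7% of all genes.

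The wider clock machinery was described with 28 more measured genes, and 5 others of the lists were not analysed here. Of the 28, 1 was called lower and 2 higher, against 7.24% of all genes called in either direction. The median difference was 0.01, and 13 had an unadjusted p under 0.05, which 20.9% of all genes had. Hlf, the third PAR bZIP factor, was lower in Ppara-/- livers, Rora, the receptor that activates Arntl against REV-ERB, was higher, and so was Cry2, the other cryptochrome. Groups did not overlap for Hlf and Rora, against 3.59% of all genes.

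Hlf had a lowest value of 8.04, a median of 8.13 and a highest of 8.21 in Ppara-/- livers, against 8.31, 8.48 and 8.62 in Ppara+/+ livers. All 6 Ppara-/- livers thus lay below all wild types, and the difference was -0.32 (SE 0.06, adjusted p = 0.0032). Hlf was also the only clock gene with a promoter in the table that held the cyclic AMP element, 9 bases before the start. Among the PAR bZIP genes, then, Hlf was called lower, Tef higher and Dbp not at all.

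Rora gave lowest, median and highest values of 9.53, 9.69 and 9.84 in Ppara-/- livers and 9.26, 9.42 and 9.51 in Ppara+/+ livers. Every Ppara-/- liver was higher than every wild type, with a difference of 0.29 (SE 0.06, adjusted p = 0.0091). Cry2 gave 8.67, 8.80 and 8.89 against 8.44, 8.59 and 8.68, with 5 Ppara-/- livers above all wild types, and the difference was 0.22 (adjusted p = 0.025). The calls of Hlf and Rora were kept in all 26 other limma settings that used 10 to 12 livers, whereas that of Cry2 was lost in 8, 7 of them with 1 liver left out, at an adjusted p of up to 0.065. Within the low and the high animal numbers Hlf gave -0.28 and -0.36 (adjusted p = 0.24 and 0.15), Rora 0.19 and 0.43 (0.45 and 0.047) and Cry2 0.14 and 0.28 (0.56 and 0.18), so that Rora in the high numbers was the one call kept.

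**Figure D3:**
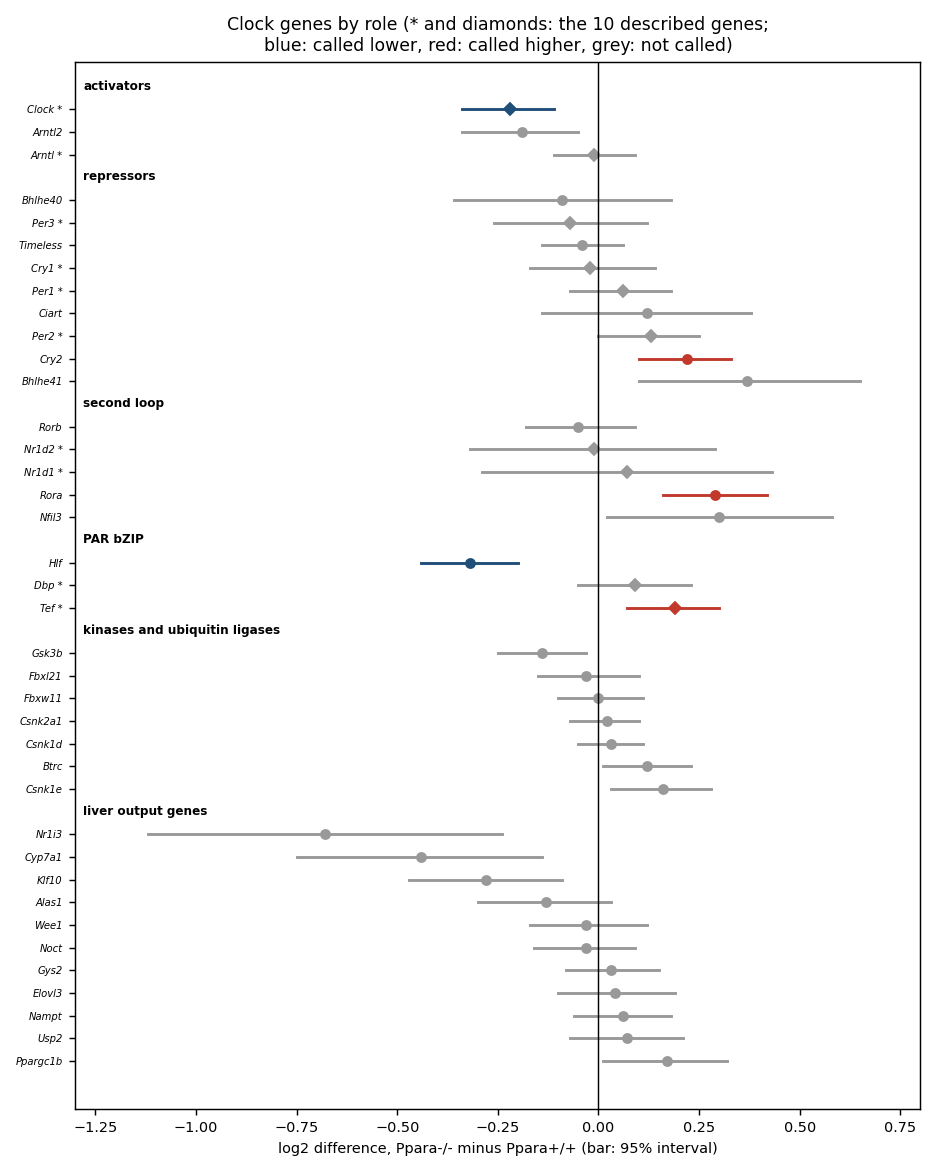
Log2 difference between Ppara-/- and Ppara+/+ livers (horizontal axis, points with 95% intervals, n = 6 each) for the 38 measured clock genes, grouped by role; diamonds and asterisks mark the 10 members. Clock and Hlf were called lower (blue), Tef, Rora and Cry2 higher (red), and the genes in grey were not called.

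By role, the 3 measured activators had a median difference of -0.19, with Clock called lower and Arntl2, a close relative of Arntl, at -0.19 (adjusted p = 0.11). The 9 repressors had a median of 0.06 and 1 call, Cry2. Of all genes 7.24% were called, and lists this short cannot be set apart from that share. Bhlhe41, which encodes the E-box repressor DEC2, gave 0.37 (adjusted p = 0.095), and 0.49 with an adjusted p of 0.0039 when Ppara-/- mouse 1 was left out. Its signal was low, with means of 4.58 in Ppara-/- and 4.21 in Ppara+/+ livers, higher than only 12.1% of all genes. It was called in 2 of 24 other limma settings, 1 of them with 1 liver left out. The 5 genes of the second loop had a median of 0.07 and 1 call, Rora. Nfil3, the D-box repressor that opposes the PAR bZIP factors, gave 0.30 (limma adjusted p = 0.19). Without Ppara-/- mouse 1 it gave 0.41 (limma adjusted p = 0.018), and it was called in 3 of 26 other limma settings.

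The 7 kinases and ubiquitin ligases that set the stability of the PER and CRY proteins had 0 calls by limma, against 7.24% of all genes called. Of the 7, 3 had an unadjusted limma p under 0.05 (20.9% of all genes). Csnk1e, which encodes casein kinase 1ε, gave 0.16 (adjusted p = 0.13), Gsk3b gave -0.14 (adjusted p = 0.11) and Btrc gave 0.12 (adjusted p = 0.19). The median of the 7 was 0.02. Of 11 genes known as clock outputs in adult liver 0 were called either (7.24% of all genes). Of the 11, 4 had an unadjusted limma p under 0.05 (20.9% of all genes), and the median was -0.03.

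The 3 output genes nearest to the threshold read lower in Ppara-/- livers. Ppargc1b, next in order, read higher, by 0.17 (limma adjusted p = 0.19). Nr1i3, which encodes the xenobiotic receptor CAR, gave -0.68 (adjusted p = 0.061), Klf10 -0.28 (adjusted p = 0.071) and Cyp7a1, the rate-limiting enzyme of bile acid synthesis, -0.44 (adjusted p = 0.077). Each of these 3 was also lower in wild-type mice 5 and 6 than in mice 1 to 4, as were 10.7% of all genes. With the animal number as a covariate the differences were -0.61, -0.26 and -0.40, and all 3 were called (limma adjusted p = 0.0031, 0.024 and 0.026). They were called as well with array weights, without Ppara-/- mouse 1, without Ppara+/+ mouse 6 and, in a setting added after the data were seen, without wild-type mice 5 and 6, where the differences were -0.94, -0.38 and -0.58. The mouse number as a replicate block called Nr1i3 and Klf10 (0.018 and 0.011), and the set of animal numbers as a block called none of the 3 (0.059, 0.16 and 0.17). Neither the sex score (limma adjusted p = 0.17, 0.19 and 0.17) nor the erythroid score (0.11, 0.098 and 0.13) as a covariate called any. Of 26 other limma settings on 10 to 12 livers, 8 called Nr1i3, 9 Klf10 and 6 Cyp7a1, and 3 called Ppargc1b. Usp2, Noct and Wee1, whose adult rhythms are known to be strong, gave 0.07, -0.03 and -0.03.

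**Figure D4:**
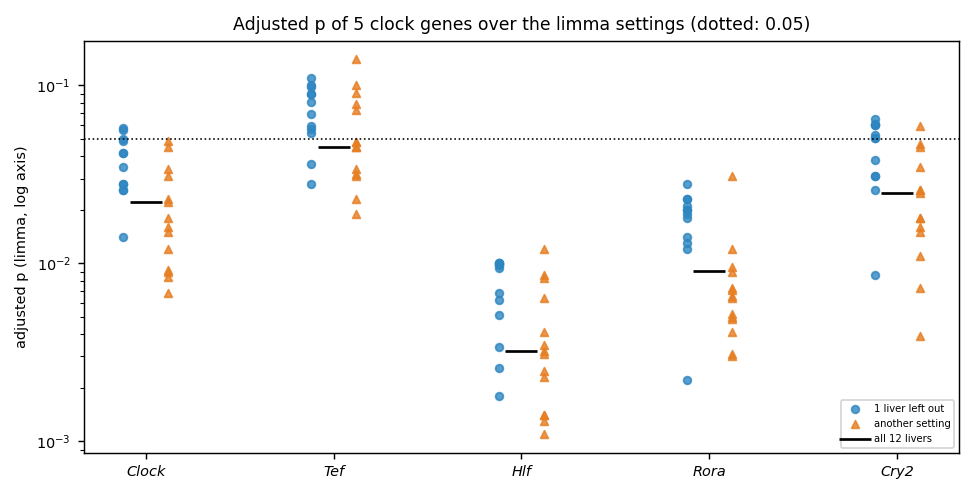
Adjusted p-values of limma (vertical log axis) for the 5 clock genes called, with a bar for all 12 livers, circles for fits with 1 liver left out and triangles for the other settings on 10 to 12 livers (fits within a set of animal numbers are not drawn). Hlf and Rora stay under the dotted line at 0.05 in all fits drawn, Clock and Cry2 cross it in a few fits, and Tef in most.

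The genes whose signals followed each member most closely over the 12 livers, after each gene was centred on its genotype means, were listed as a description. The livers are not independent where they shared a litter or a batch. For Clock they were Slc30a1 (r = 0.93), Rpusd3 (0.93) and Vapa (0.91). Tef was followed by Tlk2 (0.90), Septin4 (0.88) and Abca4 (0.86), and Per2 by Fnbp4 (0.88), Mamstr (0.85) and Clasp1 (0.85). Of these 9 genes 0 were called between the genotypes, with limma adjusted p from 0.48 to 0.99. For Nr1d1, added after its values were seen, they were Pdgfrb (0.95), Nr1d2 (0.93) and Chrna2 (0.93). Of these Chrna2, a nicotinic receptor gene, was called, 1.83-fold lower in Ppara-/- livers with no overlap (difference -0.87, adjusted p = 0.00023). The r for Nr1d1 are the highest among all genes and include wild-type mice 5 and 6, which lay apart for that gene. Over the Ppara-/- livers alone, r of Nr1d1 with Nr1d2 was 0.68. Pdgfrb, which encodes a growth factor receptor of stellate cells and pericytes, read 8.71 and 8.76 in wild-type mice 5 and 6 and 9.15 in wild-type mouse 2, the livers at the extremes of Nr1d1.

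Calls between the genotypes fell in the macrophage, stellate cell and hepatoblast lists, where 7.24% of all genes were called. Of 6 macrophage markers 2 were called higher (Csf1r by 0.23 and Cd5l by 0.40). Those not called went both ways, with Cd68 at 0.20, Marco at 0.14, Adgre1 at -0.03 and Clec4f at -0.11. Of 5 stellate cell markers 1 was called lower (Des) and 1 higher (Reln), and of 2 hepatoblast markers Dlk1 was higher by 0.42 (limma adjusted p = 0.033). The mean signal of the macrophage markers was 9.09 to 9.29 in Ppara-/- and 8.99 to 9.13 in Ppara+/+ livers, that of the stellate cell markers 8.31 to 8.57 and 8.42 to 8.79, and that of the hepatoblast markers 12.29 to 12.52 and 12.09 to 12.43. Of the erythroid, granulocyte, megakaryocyte, endothelial and bile duct markers 0 of 25 were called by limma, 1 of them with an unadjusted p under 0.05. The part of these cell types in the Clock, Tef, Hlf, Rora and Cry2 differences was not tested.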

How the data were processed

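The authors deposited 1 table of log2 values made with RMA, a procedure of background correction, quantile normalization and summary over the probes of a probeset. No RMA version or genome build is given in the sources used here. According to the labels, RNA was extracted from whole livers with TRIzol and silica columns, and 100 ng of RNA with an integrity number above 8 was labelled. The table held 35556 probesets on 12 arrays with values from 1.95 to 13.91, and 0 columns without a sample. Arrays carry no read depth, and the number of livers limits the precision.

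A platform table gave 21789 probesets 1 gene symbol, 1621 several and 12146 none, and 99.6% of the first matched the RefSeq gene table of GRCm38.p6 by gene ID. The probeset with the highest mean was taken for each of 19938 genes. Genotypes were compared in R 4.3.3 by a linear model without covariates (limma 3.58.1, functions lmFit and eBayes), two-sided, with Benjamini-Hochberg adjustment over all genes. Livers of a litter may not be independent, and the model had no term for the litter, so its p-values may be too small. Correlations used exact permutation over the 6 livers of a genotype. Python 3.11.15 with pandas 2.3.3 and numpy 2.4.6 served for tables and matplotlib 3.10.9 for plots. The fit was tested on simulated data.

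Named genes were Ppara, the 10 members, from each other list the genes called plus the 3 with the smallest p, and for the 3 members with the smallest p the 3 genes most alike; others are named where a result turns on them. The members, lists and settings were chosen with earlier results of these data known. Other settings were renewed quantile normalization, equal array medians, the mean over a gene's probesets, every probeset, removal of genes under the 25th or the 50th percentile of mean signal, an intensity trend with robust eBayes, array weights, the mouse number as a replicate block, sex and erythroid scores and the animal number as covariates, low and high animal numbers (6 fetuses each) as a block and each set alone, the exact Mann-Whitney test and each liver left out. Leaving out wild-type mice 5 and 6 together was added after the data were seen.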

Additional observations from a re-analysis of the deposited data

Results flagged for a closer look

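The test of the most extreme liver (Dixon's test at 95%, 6 livers a genotype) was applied to 76 groups, each clock gene in each genotype, and 8 groups held a liver standing apart, where chance gives about 1 in 20. Among the 20 groups of the members 3 did. Ppara-/- mouse 2 was low for Arntl at 8.33, Ppara-/- mouse 1 high for Per3 at 7.28 and Ppara-/- mouse 6 low for Nr1d2 at 7.76. Of the other clock genes, Arntl2 was low in Ppara-/- mouse 5 at 5.64, Nfil3 low in Ppara-/- mouse 1 at 7.95, Csnk1d low in Ppara+/+ mouse 4 at 10.05, Fbxl21 high in Ppara+/+ mouse 3 at 6.84 and Cyp7a1 high in Ppara-/- mouse 1 at 11.78. Wild-type mice 5 and 6, low for Nr1d1 and Nr1d2, do not appear here because the test looks for a single liver.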

How the results depend on the processing

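Leaving out 1 liver at a time gave 0 to 1 members called lower, 0 to 1 called higher and 851 to 2521 of all genes called. Clock was lost without Ppara-/- mouse 2 or 6, and Tef in 10 of these 12 fits (kept without Ppara-/- mouse 1 or Ppara+/+ mouse 1). The number of members called higher was 0 with wild-type mice 5 and 6 left out, with the low and high sets of animal numbers as a block, with the erythroid score, with the sex score, with the mouse number as a replicate block, by the exact Mann-Whitney test and within either set of animal numbers. The number called lower was 0 by the exact Mann-Whitney test and within either set. Of all genes 936 were called with the sets as a block, 2743 with array weights, 850 with the sex score, 223 within the highest and 193 within the lowest animal numbers. The exact Mann-Whitney test called 0 of all genes, with 3683 at an unadjusted p under 0.05, since its smallest adjusted p was 0.06. With array weights Arntl2, Bhlhe41, Nfil3, Gsk3b, Cyp7a1, Nr1i3, Klf10 and Ppargc1b were called too. The causes of the other shifts were not tested.

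With the mouse number as a replicate block 1619 genes were called, Clock remained called and Tef gave 0.19 with an adjusted p of 0.091. Whether the numbers pair the livers was not tested. Correlations of same-numbered livers ran from 0.02 to 0.39, and 3 of the 6 numbers matched best with themselves. The sign of the difference changed under limma settings for Nr1d2 (9), Nr1d1 (5), Cry1 (4), Arntl (3) and Per3 (1 of them), none of them called.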
